A study of Mus musculus with 6 samples.

Results

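The insulin-like growth factor (IGF) axis of cultured marrow cells was examined through 10 genes, found by symbol among the 56980 genes of the count table. They were the ligand gene *Igf1*, the receptor genes *Igf1r* and *Igf2r*, the binding protein genes *Igfbp2*, *Igfbp3*, *Igfbp4*, *Igfbp5*, *Igfbp6* and *Igfbp7*, and *Pappa*, which encodes a protease of binding proteins. RNA-Seq had been performed on bone marrow mesenchymal stromal cells (BM MSCs), the plastic-adherent marrow cells that can form osteoblasts and adipocytes, with 3 samples each in the TranspCtrl and TranspExer groups. The cells came from female mice whose ovaries had been removed (OVX) at 8 weeks of age, and whose own gut microbiota had been depleted with antibiotics. They then received fecal microbiota transplantation (FMT) by daily gavage for 8 weeks, from sedentary mice in the TranspCtrl group and from mice trained on a treadmill in the TranspExer group. The study describes the donors in both groups as OVX mice too. Marrow flushed from femurs and tibias was cultured for 7 days with repeated washes and without a described sorting step. The strain was not given in the sources used here, and the labels do not say whether a sample was 1 animal, a pool or a repeated culture, so the p-values measure the spread between these samples, which may be technical. The comparison asks which members of the IGF axis differed in MSCs between recipients of the 2 kinds of FMT.

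IGF1 and IGF2 are peptide hormones related to insulin that act on the IGF1 receptor, a tyrosine kinase that signals through adaptor proteins to the PI3K-AKT and MAPK pathways. In bone, IGF1 made by the liver and by local cells under growth hormone supports osteoblast formation and matrix production, and it is stored in bone matrix. The IGF2 receptor, also called the cation-independent mannose 6-phosphate receptor, carries lysosomal enzymes and clears IGF2 without kinase signalling. IGF-binding proteins hold IGFs in the medium, prolong their life and can block or deliver them, and proteases such as PAPPA release IGF by cutting binding proteins. IGFBP7 binds IGFs weakly, with much lower affinity than the other members.

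*Igf1* and *Igf2r* were higher in the TranspExer group, whereas *Igfbp2*, *Igfbp3*, *Igfbp5*, *Igfbp6* and *Pappa* were lower. *Igf1r*, *Igfbp4* and *Igfbp7* did not pass the test. Thus 2 of the 10 genes were higher and 5 lower at an adjusted p-value under 0.05, against 16.6% and 15.5% of the 15190 genes tested (32.2% in either direction). With the added threshold of a fold change of 2, which the study used for differentially expressed genes (DEGs), 0 of the 10 were upregulated (3.5% of tested genes) and 3 were downregulated (5.28%), together 8.78% of tested genes in either direction. The ranges of the groups did not overlap for 3 genes that were higher and 5 that were lower, against 27.2% and 25.1% of tested genes and 52.4% in either direction. The median log2 fold change (TranspExer over TranspCtrl, as throughout) was -0.45 for the 10 genes and -0.02 for all tested genes. *Igfbp2* and *Igfbp6* passed the low-count filter through the TranspCtrl samples alone, so these genes could only have been lower or unchanged, and the counts above are a description. Levels are given in CPM, the counts of a gene relative to the size of its library after TMM normalization.

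**Figure D1:**
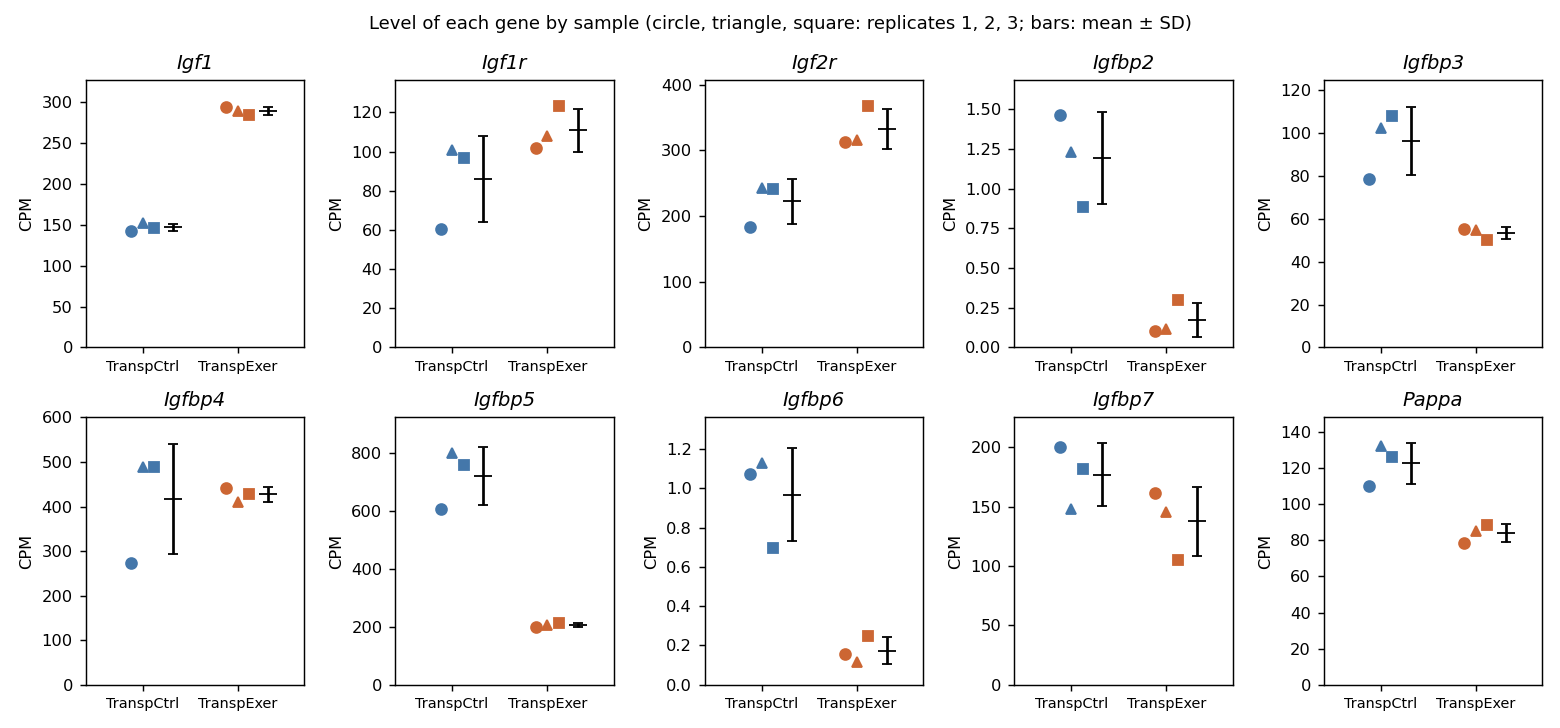
Level of each of the 10 genes in CPM (vertical axes, each starting at 0) in the 3 TranspCtrl samples (blue) and the 3 TranspExer samples (orange), with the mean and SD beside them. *Igf1* sits near 147 CPM in TranspCtrl and 289 CPM in TranspExer with little spread, *Igfbp5* falls from 722 to 207 CPM, and TranspCtrl replicate 1 (circle) lies below the other TranspCtrl samples for *Igf1*, *Igf1r*, *Igf2r*, *Igfbp3*, *Igfbp4*, *Igfbp5* and *Pappa*.

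Total counts ranged from 17647638 to 21319166 per sample, and 3 counts, the floor used here, equalled 0.139 to 0.174 CPM, which covers counting error only. TranspCtrl replicate 1 stood apart from the other TranspCtrl samples. Its Euclidean distance to them in log2 CPM was 62.8 and 60.2, while replicates 2 and 3 were 37 apart and the TranspExer samples 42.8 to 43.9. Without this sample, 15494 genes passed the filter, of which 22.1% were higher and 19.6% lower (41.7% in either direction), and 3.27% were upregulated and 5.01% downregulated past both thresholds (8.27%). Values without it are given beside the calls on the named genes that it changed.

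The cultures held more than stromal cells, and several marker lists differed between groups. Of all tested genes, 16.6% were higher and 15.5% lower. Counts of 1 or 2 calls in a direction among 10 markers are near these shares. Of 10 stromal markers, 7 were lower and 2 higher in TranspExer, and their summed level was 9780 to 15613 CPM in TranspCtrl and 9987 to 10963 CPM in TranspExer. The largest part of this sum was *Col1a1*, the 1 marker that did not pass the test. *Col1a1* was at 4563, 9951 and 9613 CPM in TranspCtrl and at 6795, 7164 and 7708 CPM in TranspExer, so the sum mostly follows this gene. The 10 macrophage markers summed to 9438 to 14518 CPM in TranspCtrl and 7606 to 8274 CPM in TranspExer, with 1 higher and 2 lower. The other 7 did not pass the test. The difference in this sum came from *Lyz2*, which was at 9102, 4895 and 5238 CPM in TranspCtrl and at 3235, 2897 and 2596 CPM in TranspExer. The higher marker was *Cd68*, with means of 479 and 823 CPM. The highest macrophage sum and the lowest stromal sum among the TranspCtrl samples were those of replicate 1. All 10 endothelial markers were higher in TranspExer (211 to 267 against 722 to 789 CPM), as were 6 of 8 tested adipocyte markers (1312 to 1407 against 4349 to 4694 CPM, with *Lep* at 0 in all samples). The adipocyte sum was mostly *Lpl* (means of 806 and 2663 CPM) and *Cd36* (364 and 1498 CPM), while *Adipoq* (0.813 and 1.02 CPM) did not pass the test. Markers of the neutrophil lineage were higher for 5 of 10 and lower for 1 (3245 to 4330 against 5773 to 6022 CPM). Of the 10 B and plasma cell markers, 8 were lower and none was higher (2070 to 2406 against 742 to 801 CPM). Of the 10 T and NK cell markers, 2 were higher and 2 lower (74.3 to 78.4 against 90.7 to 97.9 CPM). Among the genes called in these lists, *Plin1* (adipocyte), *Tnfrsf17* (B and plasma cell) and *Cd3d* (T and NK cell) passed the low-count filter only through the group in which they were higher. Among 10 osteoblast markers, 4 of the 7 tested were lower and none was higher (8084 to 12768 against 9708 to 10368 CPM), and none of 8 erythroid markers was tested (0.293 to 0.944 CPM in all samples). The osteoblast sum was mostly *Col1a1* and *Spp1*, which did not pass the test. In such a mixed culture, fewer cells of a type and less RNA per cell cannot be told apart, and the part of these differences in the results on IGF genes was not tested.

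The 10 genes lie on 8 chromosomes of the mm10 build. *Igf1* (ENSMUSG00000020053) spans chr10:87858265-87937042 on the plus strand. *Igf1r* (ENSMUSG00000005533) spans chr7:67952827-68233668 on the plus strand, and *Igf2r* (ENSMUSG00000023830) chr17:12682406-12769664 on the minus strand. *Igfbp2* (ENSMUSG00000039323, chr1:72824503-72852474, plus strand) and *Igfbp5* (ENSMUSG00000026185, chr1:72857932-72874884, minus strand) are neighbours whose 3′ ends face each other with 5457 bases between them. *Igfbp3* (ENSMUSG00000020427) spans chr11:7206086-7213923 on the minus strand, with *Igfbp1* 3539 bases away, and *Igfbp4* (ENSMUSG00000017493) chr11:99041244-99054392 on the plus strand. *Igfbp6* (ENSMUSG00000023046) spans chr15:102144362-102149511 on the plus strand, *Igfbp7* (ENSMUSG00000036256) chr5:77349240-77408041 on the minus strand and *Pappa* (ENSMUSG00000028370) chr4:65124174-65357509 on the plus strand.

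RefSeq promoter windows (GRCm38.p6) were matched for 9 of the 10 genes, as 10 windows. The sequences below are the bases before the start site for the adjacent pair *Igfbp2* and *Igfbp5*, which were both lower, and for *Igf2r*, the receptor gene that was higher, printed 5′ to 3′ on the gene's strand. Capitals mark matches, on either strand, to the E-box CACGTG or the GC box GGGCGG, a core element bound by SP factors.
*Igfbp2*, chr1:72824230-72824479, plus strand: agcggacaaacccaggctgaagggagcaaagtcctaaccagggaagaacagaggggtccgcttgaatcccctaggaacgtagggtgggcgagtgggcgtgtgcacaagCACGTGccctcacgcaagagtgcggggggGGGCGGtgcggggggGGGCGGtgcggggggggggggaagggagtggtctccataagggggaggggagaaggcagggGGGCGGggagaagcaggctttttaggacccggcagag
*Igfbp5*, chr1:72874885-72875115, minus strand: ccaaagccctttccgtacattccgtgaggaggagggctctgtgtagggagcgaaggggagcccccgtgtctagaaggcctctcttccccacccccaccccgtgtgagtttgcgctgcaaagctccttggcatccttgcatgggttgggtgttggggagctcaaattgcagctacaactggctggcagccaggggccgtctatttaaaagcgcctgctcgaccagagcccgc
*Igf2r*, chr17:12769707-12769956, minus strand: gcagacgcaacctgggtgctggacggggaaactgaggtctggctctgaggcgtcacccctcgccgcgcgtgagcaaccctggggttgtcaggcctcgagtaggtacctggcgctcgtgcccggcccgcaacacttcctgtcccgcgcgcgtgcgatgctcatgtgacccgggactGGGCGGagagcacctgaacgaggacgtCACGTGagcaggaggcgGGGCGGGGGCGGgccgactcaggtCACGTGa
The *Igf2r* stretch held the E-box at 2 places and the GC box at 3, the *Igfbp2* stretch held 1 E-box and 3 GC boxes, and the *Igfbp5* stretch held neither. Another *Igfbp2* window, for a different start site (stretch chr1:72825137-72825321, not printed), also held neither. Over whole windows, the E-box was found in 2 of the 10 windows (*Igf2r* and *Igfbp2*) and in 7.15% of all 32851 windows of the same length, and the GC box in 4 (*Igf1r*, *Igf2r*, *Igfbp2* and *Igfbp7*) and in 35.7% of all windows. TATAAA was found in *Igfbp4* and *Igfbp6* (13.6% of all windows), CCAAT in *Igf1* and *Igfbp6* (37.4%) and the AP-1 motif TGANTCA in *Igf1* and in 1 *Igfbp2* window (7.81%). The oestrogen response element, GGTCA and TGACC with any 3 bases between them, was found in none of the 10 windows and in 0.07% of all windows. The motifs were searched on both strands, were chosen after the values of the genes were known, and are a description of the letters in these windows.

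The ligand gene *Igf1* was 1.97-fold higher in the TranspExer group. Its level was 142, 152 and 146 CPM in TranspCtrl replicates 1, 2 and 3 and 295, 289 and 284 CPM in TranspExer replicates 1, 2 and 3. Every TranspExer sample lay above every TranspCtrl sample, and the spread within each group was small, with means of 147 ± 4.77 and 289 ± 5.12 CPM (SD, n = 3). The log2 fold change was 0.98 (standard error, SE, 0.07; adjusted p = 0.000101 from edgeR), which fell just short of the fold threshold of 2. Over the settings tried, the log2 fold change of *Igf1* ranged from 0.89 to 1.01, and without TranspCtrl replicate 2 it passed the fold threshold. The antisense gene *Igf1os* overlaps *Igf1* without shared exon bases and had a mean count of 4.83, against 4224.83 for *Igf1*.

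The 5 genes with a pattern most like *Igf1*, by Pearson correlation of log2 CPM over the 6 samples among 9674 genes with a mean of at least 10 CPM, were *Prnd*, *Clec4a1*, *Abhd12*, *Rsad2* and *Unc93b1* (r = 0.999 for each, with 158 genes above 0.99). All values share the same 6 libraries and the same separation of the groups. *Rsad2*, an interferon-induced antiviral gene, was at 25.4, 27.6 and 26.8 CPM in TranspCtrl and at 55.7, 57.6 and 55.2 CPM in TranspExer. *Unc93b1*, which escorts endosomal Toll-like receptors, went from 303, 309 and 300 to 412, 412 and 407 CPM. *Clec4a1*, a C-type lectin of myeloid cells, was at 85.1, 90.3 and 88.6 CPM in TranspCtrl and at 158, 151 and 155 CPM in TranspExer. *Abhd12*, a lysophosphatidylserine lipase, and *Prnd*, a relative of the prion protein gene, had log2 differences of 1.05 and 2.00.

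Of the receptor genes, *Igf2r* was higher in TranspExer, and *Igf1r* did not pass the test. *Igf2r* was at 183, 243 and 242 CPM in TranspCtrl and at 314, 316 and 367 CPM in TranspExer. The groups did not overlap, and TranspCtrl replicate 1 was the lowest sample. The means were 223 ± 34.5 and 332 ± 30.3 CPM (SD, n = 3), and the log2 fold change was 0.58 (SE 0.13, adjusted p = 0.0124), or 1.49-fold. Without TranspCtrl replicate 1 it was 0.45 (adjusted p = 0.000167), and without TranspExer replicate 3, the highest sample, it was 0.49 and no longer passed (adjusted p = 0.0561). *Airn*, the long RNA that runs antisense to *Igf2r*, shares no exon bases with it in the annotation and had a mean count of 58.01, against 5416 for *Igf2r*.

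*Igf1r* was at 60.5, 101 and 96.5 CPM in TranspCtrl and at 102, 108 and 123 CPM in TranspExer. The ranges were apart only narrowly, at 100.6 and 101.8 CPM, and TranspCtrl replicate 1 was far below all other samples. The means were 85.9 ± 22.1 and 111 ± 11.0 CPM (SD, n = 3), with a log2 fold change of 0.37 (SE 0.18, adjusted p = 0.156). Without TranspCtrl replicate 1 the value was 0.17 (SE 0.07, adjusted p = 0.0862).

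**Figure D2:**
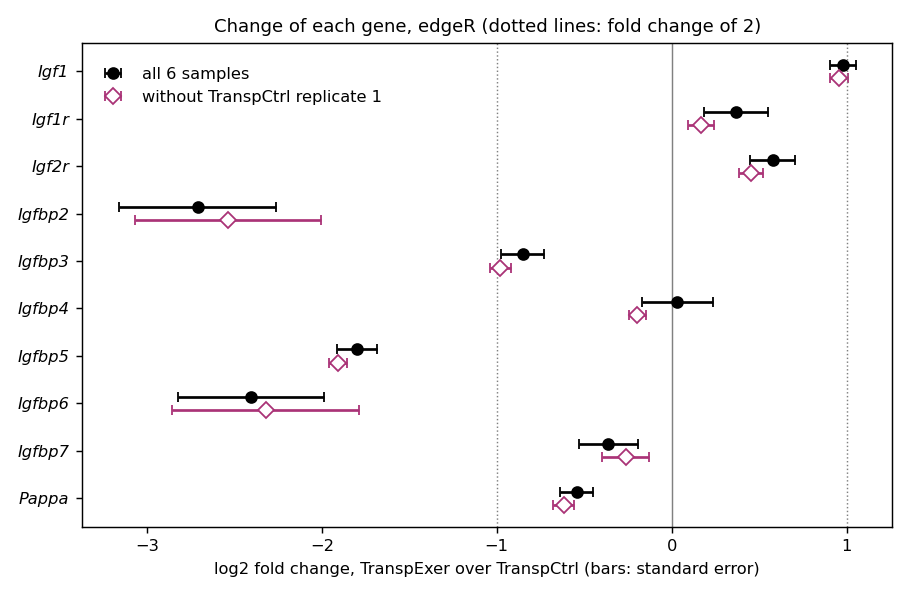
Log2 fold change of TranspExer over TranspCtrl for the 10 genes (horizontal axis) with standard errors, from all 6 samples (filled circles) and without TranspCtrl replicate 1 (open diamonds); dotted lines mark a fold change of 2. *Igf1* lies just inside the upper line at 0.98, *Igfbp2*, *Igfbp5* and *Igfbp6* lie beyond the lower line, and the value of *Igfbp4* crosses 0 when the sample is left out, from 0.03 to -0.20.

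Among the 6 binding protein genes, 4 were lower in TranspExer and none was higher, beside 15.5% and 16.6% of all tested genes. *Igfbp2* and *Igfbp6* are 2 of the 4 and passed the low-count filter through TranspCtrl alone, so the count is a description. *Igfbp5*, which encodes the binding protein that attaches to bone matrix, had the smallest adjusted p-value of the 10 genes. It was at 609, 800 and 758 CPM in TranspCtrl and at 200, 207 and 215 CPM in TranspExer. The lowest TranspCtrl sample was far above the highest TranspExer sample, and the spread among TranspExer samples was small (722 ± 100 against 207 ± 7.67 CPM, SD, n = 3). The log2 fold change was -1.80 (SE 0.12, adjusted p = 6.19e-05), 3.48-fold lower, and it ranged from -1.91 to -1.72 when each sample was left out in turn.

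*Igfbp3*, the gene of the main carrier of IGF1 in serum, was at 78.5, 103 and 108 CPM in TranspCtrl and at 55.0, 54.9 and 50.3 CPM in TranspExer. All TranspCtrl samples were higher than all TranspExer samples. The means were 96.4 ± 15.7 and 53.4 ± 2.69 CPM (SD, n = 3), and the log2 fold change was -0.85 (SE 0.12, adjusted p = 0.00199), 1.80-fold lower and so inside the fold threshold. Without TranspCtrl replicate 1, the lowest sample of its group, the value was -0.98. *Igfbp1*, its neighbour on chromosome 11, had 0 counts in all 6 samples.

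*Igfbp2* and *Igfbp6* were expressed at the edge of detection and were lower in TranspExer. *Igfbp2* was counted 30, 24 and 19 times in TranspCtrl samples and 2, 2 and 6 times in TranspExer samples. The groups did not overlap, and 2 of the 3 TranspExer samples were under the floor of 3 counts. The log2 fold change was -2.71 (SE 0.45, adjusted p = 0.00357), and the summed counts of 73 and 10 gave a ratio of 6.70 between the groups (exact 95% interval 3.45 to 14.6, counting error only). TranspExer replicate 3 held 6 of those 10 counts, and without it the log2 fold change was -3.37 (adjusted p = 0.00932) against 2 samples that were both under the floor. *Igfbp6*, whose product prefers IGF2 to IGF1, was counted 22, 22 and 15 times in TranspCtrl samples and 3, 2 and 5 times in TranspExer samples. Its groups did not overlap either. The log2 fold change was -2.41 (SE 0.42, adjusted p = 0.0043), and the summed counts of 59 and 10 gave a ratio of 5.42 (exact 95% interval 2.75 to 11.9).

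*Igfbp4*, a binding protein gene whose product is the best known substrate of PAPPA, showed no difference past the threshold with all 6 samples. It was at 274, 488 and 489 CPM in TranspCtrl and at 442, 410 and 428 CPM in TranspExer. TranspCtrl replicate 1 was far below the rest, and the other TranspCtrl samples were above all TranspExer samples. The means were 417 ± 124 and 427 ± 16.0 CPM (SD, n = 3), with a log2 fold change of 0.03 (SE 0.20, adjusted p = 0.911). Without TranspCtrl replicate 1 it was -0.20 (SE 0.05, adjusted p = 0.00679), so the call on *Igfbp4* rested on this sample.

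*Igfbp7*, the low-affinity member, was at 201, 148 and 181 CPM in TranspCtrl and at 162, 146 and 105 CPM in TranspExer. The groups overlapped. The means were 177 ± 26.5 and 138 ± 29.0 CPM (SD, n = 3), with a log2 fold change of -0.36 (SE 0.17, adjusted p = 0.139). Its exons share 85 bases with those of *Polr2b* on the opposite strand, which had a mean count of 1728.33, against 3103.5 for *Igfbp7*.

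*Pappa*, the gene of a metalloprotease that releases IGF from binding proteins, was lower in TranspExer as well. It was at 110, 132 and 126 CPM in TranspCtrl and at 78.7, 85.4 and 88.2 CPM in TranspExer. The groups did not overlap, with means of 123 ± 11.5 and 84.1 ± 4.87 CPM (SD, n = 3). The log2 fold change was -0.54 (SE 0.09, adjusted p = 0.00403), 1.46-fold lower, and -0.62 (adjusted p = 4.11e-06) without TranspCtrl replicate 1.

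Levels of different genes were compared per length, as RPKM, which divides a CPM value by the length of the union of exons in kilobases. In TranspCtrl, *Igfbp7* (146 ± 21.9 RPKM, SD, n = 3), *Igfbp5* (120 ± 16.7) and *Igfbp4* (94.5 ± 28.1) were the most abundant of the 10, and each overlapped the next in this order. *Igfbp3* (30.8 RPKM) and *Igf2r* (23.9 RPKM) followed with overlapping ranges, then *Igf1* (14.8), *Pappa* (11.1) and *Igf1r* (5.12), each apart from the next, and last *Igfbp6* (0.870) and *Igfbp2* (0.646), which overlapped. In TranspExer, *Igfbp7* (114 ± 24.0 RPKM) and *Igfbp4* (96.7 ± 3.63) overlapped at the top. Behind them came *Igf2r* (35.7 RPKM) and *Igfbp5* (34.5 RPKM), which overlapped, *Igf1* (29.2) and *Igfbp3* (17.1), each apart from the next, *Pappa* (7.63) and *Igf1r* (6.60), which overlapped, and *Igfbp6* (0.156) and *Igfbp2* (0.0936), which overlapped. *Igf1* thus lay below *Igfbp3* in TranspCtrl and above it in TranspExer, and *Igfbp5* went from the top 3 to the level of *Igf2r*. The place of *Igf1* depended on its length. The union of its exons is 9904 bases and its longest transcript 7052, while the deposited table lists 2292. With the listed lengths, *Igf1* was at 64.1 RPKM in TranspCtrl, above *Igfbp3* (39.8 RPKM), and at 126 RPKM in TranspExer, where it became the first of the 10 with a range overlapping that of *Igfbp7*.

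The summed level of the 6 binding protein genes was 356, 401 and 423 RPKM in TranspCtrl and 285, 266 and 236 RPKM in TranspExer. The groups did not overlap, and the sum in TranspExer was smaller, with means of 393 ± 33.9 and 262 ± 24.4 RPKM (SD, n = 3). *Igfbp5* made up 30.5% ± 2.46 of this sum in TranspCtrl and 13.3% ± 1.75 in TranspExer (SD, n = 3). *Igfbp4* made up 23.7% ± 5.51 in TranspCtrl and 37.0% ± 3.46 in TranspExer (SD, n = 3), although its own level did not pass the test. Without TranspCtrl replicate 1 its share was 26.9% and 37.0%, and its own level was lower in TranspExer (log2 fold change -0.20, adjusted p = 0.00679 from edgeR). The share of *Igfbp3* was 7.79% and 6.52%, with ranges apart, and the share of *Igfbp7* was 37.6% and 43.1%. The overlap for *Igfbp7* came from TranspCtrl replicate 1 (46.6%), and without it the ranges were apart (33.1% and 43.1%). These sums and shares follow from the levels already given and were not tested.

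Set against the binding proteins, *Igf1* stood higher in every TranspExer sample. The ratio of *Igf1* to the summed binding protein RPKM was 0.0404, 0.0383 and 0.0349 in TranspCtrl and 0.104, 0.110 and 0.121 in TranspExer. The ranges were far apart, and the ratio of the group means was 2.96, or 2.91 with the listed lengths. With the listed lengths the group means themselves were 0.154 and 0.448, so the size of each ratio with *Igf1* depended on the length used for it. The ratio of *Igf1* to *Igfbp5* had means of 0.125 and 0.847, 6.79 times as high in TranspExer, and the ratio of *Igf1* to *Igfbp3* had means of 0.490 and 1.71, 3.50 times as high. With the listed lengths these means were 0.539 and 3.66 for *Igfbp5* and 1.64 and 5.73 for *Igfbp3*. The ratio of *Igf1* to *Igf1r* was 3.99, 2.56 and 2.57 in TranspCtrl and 4.91, 4.55 and 3.92 in TranspExer, 1.47 times as high by the means of 3.04 and 4.46. The overlap came from TranspCtrl replicate 1 alone, and without this sample the groups were apart and the ratio of the means was 1.74. A ratio of transcripts within a sample describes RNA in the culture and not free IGF1 protein, which was not measured in these libraries.

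**Figure D3:**
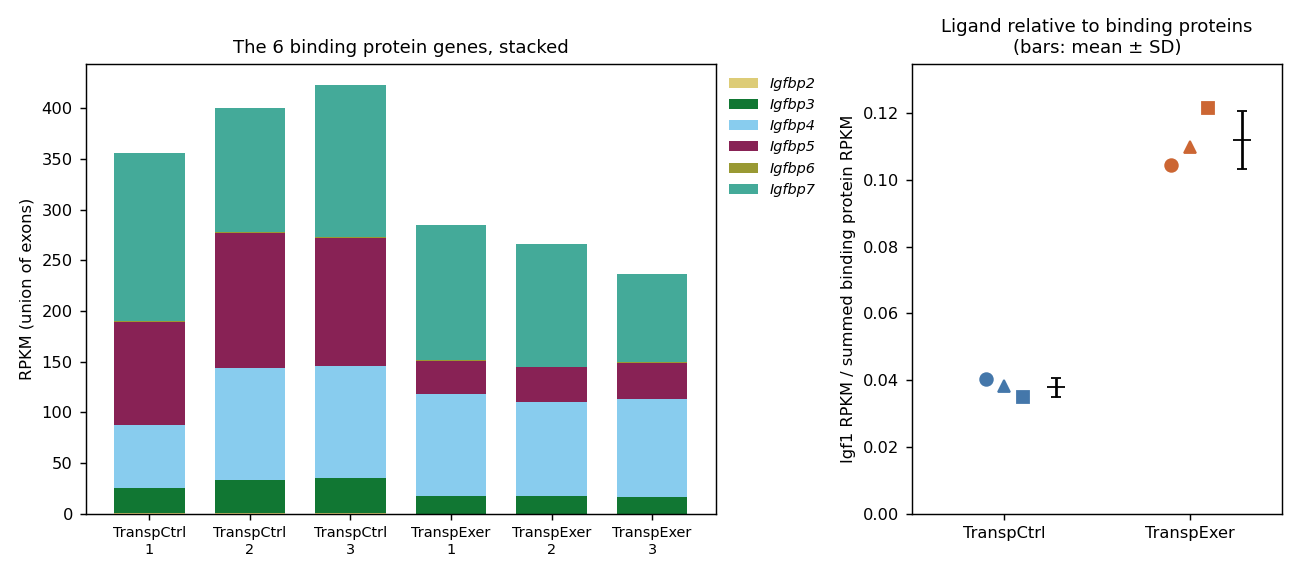
Left, RPKM of the 6 binding protein genes stacked for each sample; right, the ratio of *Igf1* RPKM to their sum in each sample with the mean and SD of each group (n = 3). The stack is shorter in every TranspExer sample (236 to 285 against 356 to 423 RPKM), mostly through *Igfbp5* (dark red), and the ratio is 0.104 to 0.121 in TranspExer against 0.0349 to 0.0404 in TranspCtrl. Lengths are those of the union of exons, and the size of the ratio depends on them.

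Further genes of the IGF pathway were taken from a list of 51, of which 46 were tested. Of these, 12 were higher and 13 lower at an adjusted p-value under 0.05, 1 was upregulated and 4 were downregulated past both thresholds, and 21 did not pass the test. Of all tested genes, 16.6% were higher and 15.5% lower, and 3.5% were upregulated and 5.28% downregulated. The upregulated gene, *Igf2bp1*, and *Igf2bp3*, 1 of the 4 downregulated genes, passed the low-count filter only through the group in which they were higher. The median log2 fold change of the list was 0.14, or 0.09 without TranspCtrl replicate 1. The calls were repeated under 12 alternatives: DESeq2, upper-quartile and library-size scaling, 2 other count filters, the replicate number as a block, and each of the 6 samples left out in turn. Of the 25 calls, 13 held under each of them, 5 higher (*Adam12*, *Grb2*, *Igf2bp2*, *Irs2* and *Pik3cb*) and 8 lower (*Eif4ebp1*, *Grb10*, *Grb14*, *Htra1*, *Igf2*, *Irs1*, *Jak2* and *Stc2*). The other 12 were lost under at least 1. The second ligand gene, *Igf2*, changed in the direction opposite to *Igf1*. It was at 19.7, 30.5 and 30.1 CPM in TranspCtrl and at 3.66, 3.84 and 3.78 CPM in TranspExer. The groups were far apart, with a log2 fold change of -2.83 (SE 0.19, adjusted p = 7.57e-05). *Igfbp1* and *Irs4* had 0 counts in all samples, *Igfbpl1* 0 to 2, *Insrr* 0 to 3 and *Igfals*, the acid-labile subunit that stabilizes IGF in serum, 1 to 9, and these 5 genes were not tested.

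Of 5 genes for further proteases of binding proteins and their inhibitors, 2 were higher and 2 lower, beside the 16.6% and 15.5% of all tested genes. *Stc1* and *Stc2* encode stanniocalcins, which inhibit PAPPA. *Stc2* was at 11.2, 15.7 and 14.6 CPM in TranspCtrl and at 5.07, 4.59 and 4.72 CPM in TranspExer, a log2 fold change of -1.53 (SE 0.15, adjusted p = 0.000377). *Stc1* was at 12.1, 16.9 and 17.6 CPM in TranspCtrl and at 21.6, 23.9 and 26.5 CPM in TranspExer, a log2 fold change of 0.63 (SE 0.15, adjusted p = 0.018), a call that was lost without TranspExer replicate 2 and without TranspExer replicate 3. The stanniocalcin genes thus moved in opposite directions, each without overlap between groups. *Htra1*, a serine protease that cuts IGFBP5, was at 113, 139 and 133 CPM in TranspCtrl and at 59.2, 64.3 and 53.8 CPM in TranspExer, a log2 fold change of -1.12 (SE 0.11, adjusted p = 0.000304). *Adam12*, a metalloprotease of IGFBP3 and IGFBP5, was higher by 0.48 on the log2 scale (adjusted p = 0.00668). *Pappa2*, a relative of *Pappa*, had a mean of 0.966 CPM in TranspCtrl and 1.10 CPM in TranspExer and did not pass the test (log2 fold change 0.19, SE 0.29, adjusted p = 0.634).

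Downstream of the receptors, the insulin receptor substrates also moved in opposite directions. *Irs1*, the adaptor best known for IGF1 signalling in bone, was at 34.6, 52.1 and 43.7 CPM in TranspCtrl and at 19.1, 20.0 and 28.5 CPM in TranspExer, a log2 fold change of -0.94 (SE 0.19, adjusted p = 0.00844). Without TranspCtrl replicate 1 it was -1.08 (adjusted p = 3.66e-05), past both thresholds, which it also passed without TranspExer replicate 3 and with upper-quartile or library-size scaling. It shares 2822 exon bases with *Gm9747* on the opposite strand, which had a mean count of 842.95, against 658.05 for *Irs1*, so its counts are uncertain. *Irs2* was at 27.0, 34.3 and 32.5 CPM in TranspCtrl and at 45.6, 42.0 and 49.9 CPM in TranspExer, a log2 fold change of 0.55 (SE 0.11, adjusted p = 0.00853). Among the 8 tested adaptors, 2 were higher and 3 lower, again beside 16.6% and 15.5% of all tested genes. *Grb10* and *Grb14*, which restrain insulin and IGF receptor signalling, were lower, with log2 fold changes of -0.70 and -0.85, and *Grb2*, which links receptors to RAS, was higher at 0.70. The insulin receptor gene *Insr*, whose product pairs with the IGF1 receptor in hybrid receptors, missed the threshold (log2 fold change 0.30, SE 0.10, adjusted p = 0.0538). It passed under 2 of the 12 alternatives, the replicate block and the fit without TranspCtrl replicate 1 (0.21, adjusted p = 0.0241).

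In the PI3K, AKT and FOXO group, 2 of 13 genes were higher, *Pik3cb* (log2 fold change 0.74) and *Akt1* (0.38), and none was lower. This was 15.4% of the group, against 16.6% of all tested genes that were higher, and the call on *Akt1* was lost without TranspExer replicate 2. The count ranged from 1 to 6 of 13 over the 12 alternatives. It was highest without TranspCtrl replicate 1, a fit in which 22.1% of all genes were higher, with *Foxo1* (0.24, adjusted p = 0.0388), *Foxo3* (0.19, adjusted p = 0.0409), *Gsk3b* (0.15, adjusted p = 0.0371) and *Pik3r1* (0.18, adjusted p = 0.0217) added. *Foxo1* also passed without TranspCtrl replicate 2 and with the looser count filter. The median of the group was 0.28 with all samples and 0.10 without TranspCtrl replicate 1.

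In the mTOR branch, *Tsc2* was higher (0.42), and *Tsc1* (-0.31), *Rictor* (-0.27) and *Eif4ebp1* (-0.52) were lower among 8 genes, beside 16.6% and 15.5% of all tested genes. *Tsc2* shares 693 exon bases with *Pkd1* on the opposite strand, which had a mean count of 1657.75, against 1425.74 for *Tsc2*, so its counts are uncertain. The call on *Eif4ebp1* held under all 12 alternatives, while that on *Tsc1* was lost under 7 of them, that on *Rictor* under 6 and that on *Tsc2* under 4. *Rps6kb1*, the gene of the S6 kinase, did not pass the test with all samples but was lower without TranspCtrl replicate 1 (-0.18, adjusted p = 0.0326) and under both other scalings. It shares 155 exon bases with *Rnft1* on the opposite strand, which had a mean count of 1062, against 971.67.

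Of 6 genes of the growth hormone axis, 2 were higher and 3 lower, beside the same shares of 16.6% and 15.5%. The growth hormone receptor gene *Ghr*, through which growth hormone induces *Igf1*, had means of 37.9 ± 3.98 and 46.8 ± 3.08 CPM (SD, n = 3), and its log2 fold change of 0.30 (SE 0.10) passed the test narrowly (adjusted p = 0.0481). This call was lost under 9 of the 12 alternatives, DESeq2, both other scalings and the replicate block among them. *Stat5b* was higher too (0.30), while *Jak2* (-0.38) and the feedback inhibitors *Socs2* (-0.46) and *Cish* (-0.72) were lower. The calls on *Stat5b*, *Socs2* and *Cish* were each lost under 4 alternatives and that on *Jak2* under none. The mannose 6-phosphate receptor gene *M6pr*, which shares the enzyme-sorting role of *Igf2r*, was higher by 0.26 on the log2 scale (adjusted p = 0.0314), and this call too was lost under 9 of the 12 alternatives, both other scalings and the replicate block among them.

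The IGF2 mRNA-binding proteins control the fate of *Igf2* and other transcripts and, despite their name, do not bind the hormone. *Igf2bp2* was at 23.2, 28.7 and 28.6 CPM in TranspCtrl and at 51.6, 45.4 and 43.1 CPM in TranspExer, a log2 fold change of 0.80 (SE 0.11, adjusted p = 0.00176). *Igf2bp1* was counted 4, 5 and 6 times in TranspCtrl samples and 14, 10 and 23 times in TranspExer samples (log2 fold change 1.73, adjusted p = 0.015). Its summed counts of 15 and 47 gave a ratio of 3.41 (exact 95% interval 1.87 to 6.57, counting error only). *Igf2bp3* had 52 counts in TranspCtrl and 18 in TranspExer over 3 samples each, a log2 fold change of -1.39 (adjusted p = 0.0154) and a ratio of 2.65 (1.53 to 4.82). *Igf2bp1* and *Igf2bp3* passed the low-count filter only through the group in which they were higher, and *Igf2bp3* shares 1529 exon bases with *Malsu1* on the opposite strand, which had a mean count of 150.76, against 11.57. The call on *Igf2bp3* was lost with DESeq2 and without TranspCtrl replicate 2, TranspExer replicate 2 or TranspExer replicate 3, and that on *Igf2bp1* without TranspExer replicate 3.

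**Figure D4:**
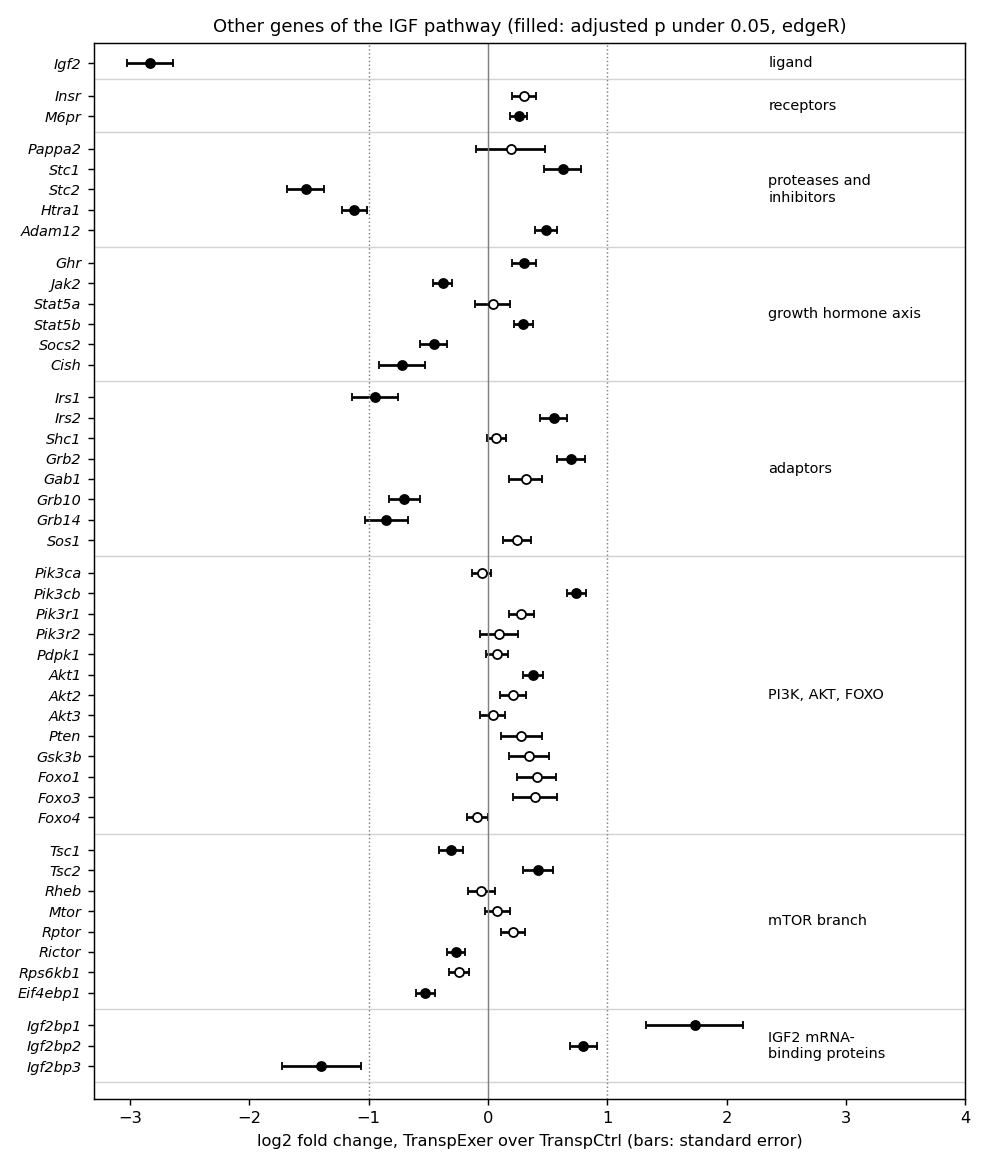
Log2 fold change of TranspExer over TranspCtrl (horizontal axis) with standard errors for the 46 tested pathway genes outside the 10, grouped by role; filled points had an adjusted p-value under 0.05 and dotted lines mark a fold change of 2. *Igf2* lies farthest to the left at -2.83, *Stc2*, *Htra1* and *Igf2bp3* also lie beyond the lower line, *Igf2bp1* lies beyond the upper line at 1.73, and the PI3K, AKT and FOXO genes have a median of 0.28 with 2 filled points.

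Since an exact two-sided permutation test of 3 samples against 3 cannot give a p-value under 0.1, the calls rest on the model of edgeR, which also shares variance across genes. The counts of pathway genes also changed when single samples were left out. Without TranspExer replicate 2, 6 were higher and 8 lower, and without TranspExer replicate 3 the counts were again 6 and 8. They were 9 and 10 without TranspExer replicate 1, 8 and 10 without TranspCtrl replicate 3, and 13 and 10 without TranspCtrl replicate 2. Without TranspCtrl replicate 1 they were 17 and 14, beside 22.1% and 19.6% of all tested genes. The share of all tested genes is not given here for the other fits. Whether the changes were particular to these genes was not tested.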

How the data were processed

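RNA-Seq of BM MSCs was analysed in 3 TranspCtrl and 3 TranspExer samples, grouped by the sample labels. The authors deposited an expected count (estimated count) for each gene and sample, without normalization, and a length for each gene in bases (per the file headers). Counts were rounded, since 10.1% to 12.2% of values per sample had decimals. The submitters' processing notes name the mm10 build, while the aligner and counting tool were not given in the sources used here. The library kit is a stranded mRNA kit in the labels and TruSeq in the study's methods, and it is unknown whether counting used strand. The 1542 genes without a symbol held 0.162% of counts and were kept under their identifiers.

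Genes were tested in R 4.3.3 with edgeR 4.0.16 (filterByExpr with a minimum count of 10, TMM, quasi-likelihood test, no covariate). P-values were adjusted by the Benjamini-Hochberg method over the 15190 genes tested. The DEG thresholds were those of the study, 0.05 for the adjusted p-value and 2 for the fold change. RPKM used exon lengths of GENCODE M21. Promoters were read from RefSeq. The fits were tested on simulated data.

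The members and gene lists were chosen with earlier results of these data known. The genes named are the 10 members, pathway genes past both DEG thresholds, 11 pathway genes listed whatever their values (*Igf2*, *Insr*, *Irs1*, *Irs2*, *Ghr*, *Stc1*, *Stc2*, *Pappa2*, *Igfals*, *Igf2bp2* and *Igf2bp3*) and the 5 genes most like *Igf1*. *Igf2*, *Stc2* and *Igf2bp3* belong to both classes of pathway genes. Other pathway genes and overlapping genes were named after their values were seen. Alternatives were DESeq2 1.42.0, other scalings and filters, a replicate block, the fold change tested in the model, other lengths and each sample left out in turn. The motifs and the listed length as an alternative were added after the data were examined. Samples with equal replicate numbers did not deviate together (r = 0.0247, -0.00167 and 0.0416), so the numbers were not taken as pairs.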

Additional observations from a re-analysis of the deposited data

How the results depend on the processing

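Among the 10 genes, *Igf1*, *Igf1r*, *Igfbp2*, *Igfbp3*, *Igfbp5*, *Igfbp6*, *Igfbp7* and *Pappa* kept their direction and their side of the adjusted p threshold under the 12 alternatives run for each. *Igf2r* did so under 11 and lost its call without TranspExer replicate 3 (0.49, adjusted p = 0.0561). *Igfbp4* turned negative with upper-quartile factors (-0.036), with library size only (-0.042) and without TranspCtrl replicate 1 (-0.20), and it ranged from -0.20 to 0.16 when each sample was left out in turn. The cause was not tested. With each sample left out in turn, 1 to 2 of the 10 genes were higher, 5 to 6 lower, 0 to 1 upregulated and 3 downregulated past both thresholds. Of the pathway genes, 6 to 17 were higher, 8 to 14 lower, 0 to 1 upregulated and 3 to 5 downregulated. The counts of 17 and 14 came from the fit without TranspCtrl replicate 1. In that fit 22.1% of all tested genes were higher and 19.6% lower, against 16.6% and 15.5% with all 6 samples. Of the 25 pathway calls, 13 held under all 12 alternatives. With glmTreat, which tests against a fold change of 2, 2 of the 10 genes were downregulated (*Igfbp2* and *Igfbp5*), and 0 pathway genes were upregulated and 2 downregulated (*Igf2* and *Stc2*). With the replicate number as a block, which marks no known pairing, 2 of the 10 genes were higher and 5 lower, *Igf1* had 0.98 and *Igfbp5* -1.79, and no call on the 10 genes changed. Upper-quartile factors and library size only shifted the median of all genes by -0.08 and -0.09. RPKM levels moved by more than the SD between replicates in 8 of 20 cases with the longest transcript and in 8 with the listed length, and in 20 as TPM, which is another scale. Depth limits *Igfbp2*, *Igfbp6*, *Igf2bp1* and *Igf2bp3*, whose lower group had 10 to 18 counts in all.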
